A study of Mus musculus with 24 samples.

Results

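Neuronal immediate-early and activity-regulated genes are the transcripts that neurons switch on within minutes to hours of firing. A list of 35 such genes was followed through the cortex of 24 mice: the FOS and JUN factors Fos, Fosb, Fosl2, Jun and Junb, the EGR factors Egr1, Egr2, Egr3 and Egr4, the NR4A nuclear receptors Nr4a1, Nr4a2 and Nr4a3, the effectors Arc, Bdnf, Homer1, Nptx2, Ptgs2 and Inhba, the kinase regulators Dusp1, Dusp4, Dusp5, Dusp6, Sik1 and Trib1, and the regulators Npas4, Ier2, Ier5, Btg2, Atf3, Klf2, Klf4, Klf6, Gadd45b, Maff and Per1. A gene was taken as the rows of the deposited table whose platform symbol was on the list, with the probe set of the highest mean used where there were several. All 35 symbols were found among the 22180 genes measured, and only Dusp6 had more than 1 probe set.

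Calcium entering an active neuron, and the kinases it turns on, phosphorylate factors such as CREB and SRF that already sit on immediate-early promoters, so these genes need no new protein for their first transcription. Their products include transcription factors (FOS, EGR, NR4A, NPAS4), proteins that change the synapse (ARC, HOMER1, BDNF) and inhibitors that end the signal (the MAP kinase phosphatases DUSP1 to DUSP6). Their transcripts are short-lived, so a level measured in cortex reflects the hours before the tissue was frozen.

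The mice were males of 18 days from 4 inbred strains, SV129, FVB, C57 (C57BL/6JOlaHsd) and C3H. Each strain had 3 mice given CBE, conduritol B epoxide, an irreversible inhibitor of glucocerebrosidase, at 25 mg/kg per day into the peritoneum over postnatal days 8 to 18, as a model of neuronopathic Gaucher disease, and 3 mice given phosphate-buffered saline (PBS) over the same days as healthy controls. No group carried a genetic change, and the model inhibits the enzyme with a chemical rather than through a mutation. RNA came from the cortex-bearing 1 mm coronal section, so a sample holds all cell types of that section, and fewer cells of a type and less RNA per cell cannot be told apart.

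The promoters of the 5 listed genes with the smallest p in SV129 CBE against SV129 PBS mice are shown, because these genes were lower together there. Windows of 300 bases, 250 before and 50 after an annotated start, were taken from RefSeq (mouse build GRCm38.p6), which held 27 of the 35 genes in 41 windows. The build behind the array's own annotation is not given in the sources used here, so these positions describe the gene starts and not the probe sets. Capitals mark matches on either strand to the cyclic AMP response element TGACGTCA, to its short core CGTCA, to the EGR motif GCGNGGGCG or to the TATA motif TATAAA.
Nr4a3 (chr4:48045055-48045354, + strand): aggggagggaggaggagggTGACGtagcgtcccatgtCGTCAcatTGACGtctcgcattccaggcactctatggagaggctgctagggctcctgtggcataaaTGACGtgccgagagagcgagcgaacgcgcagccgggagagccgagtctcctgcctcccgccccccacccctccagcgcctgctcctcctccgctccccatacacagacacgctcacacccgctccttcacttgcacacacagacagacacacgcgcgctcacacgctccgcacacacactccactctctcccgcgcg
Fosl2 (chr5:32136222-32136521, + strand): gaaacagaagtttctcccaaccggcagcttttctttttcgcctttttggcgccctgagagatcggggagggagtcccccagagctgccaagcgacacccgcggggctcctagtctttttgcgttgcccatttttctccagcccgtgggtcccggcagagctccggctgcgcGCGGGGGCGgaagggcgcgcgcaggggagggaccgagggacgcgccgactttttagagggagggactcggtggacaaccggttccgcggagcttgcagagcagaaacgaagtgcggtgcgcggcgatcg
Nr4a2 (chr2:57123954-57124253, - strand): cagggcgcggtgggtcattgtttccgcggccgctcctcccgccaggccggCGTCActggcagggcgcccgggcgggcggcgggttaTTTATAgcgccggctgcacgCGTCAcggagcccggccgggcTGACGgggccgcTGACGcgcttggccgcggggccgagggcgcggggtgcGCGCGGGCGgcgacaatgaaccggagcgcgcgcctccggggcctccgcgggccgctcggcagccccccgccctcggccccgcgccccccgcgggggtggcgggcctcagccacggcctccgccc
Nr4a1 (chr15:101266596-101266895, + strand): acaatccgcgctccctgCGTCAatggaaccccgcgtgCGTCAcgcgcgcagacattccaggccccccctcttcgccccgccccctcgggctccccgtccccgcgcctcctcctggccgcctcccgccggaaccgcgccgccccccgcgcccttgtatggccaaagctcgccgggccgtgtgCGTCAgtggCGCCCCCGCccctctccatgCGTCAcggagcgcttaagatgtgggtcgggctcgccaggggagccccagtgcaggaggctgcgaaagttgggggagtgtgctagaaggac
Fos (chr12:85473640-85473939, + strand): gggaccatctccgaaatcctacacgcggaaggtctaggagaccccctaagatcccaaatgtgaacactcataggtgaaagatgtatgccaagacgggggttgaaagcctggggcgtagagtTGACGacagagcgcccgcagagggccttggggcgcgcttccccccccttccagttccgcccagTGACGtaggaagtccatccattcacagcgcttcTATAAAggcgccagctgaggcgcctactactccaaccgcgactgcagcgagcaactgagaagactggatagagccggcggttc

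The windows of Nr4a3, Nr4a2 and Nr4a1 each held 4 copies of the core CGTCA, the binding core of CREB, within 231 bases upstream of the start for Nr4a3, 200 for Nr4a2 and 233 for Nr4a1. The Fos window held 2 such cores and a TATAAA beginning 33 bases upstream of the start, while the Fosl2 window held no core and 1 EGR match. Over the list, the core was in 24 of 41 windows (20 of 27 genes), against 20.8% of all 32851 windows of that length, and the core also lies inside the full element. The full element TGACGTCA was in 3 member windows (Dusp1, Btg2 and Maff), against 1.79% of all windows, and the EGR motif was in 9, against 5.55%. The serum response element (CArG box), the site of SRF, was in 5 member windows, which belong to 2 genes, Egr2 and Dusp5, against 1.63% of all windows, and TATAAA was in 5, against 13.6%. The AP-1 motif TGACTCA, bound by FOS and JUN dimers, was in none of the 41 windows, against 5.2% of all. The windows of 1 gene can overlap each other, and a match is a run of letters, not a measured binding event.

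Values are log2 signals as deposited, 1 array per mouse, and the number of arrays limits the precision. Array medians lay between 4.14 and 4.22 over all probe sets, and arrays of a group correlated at 0.989 to 0.993. Of the 35 genes, 29 had a mean of at least 5, above the median of all values of 4.18. Maff (3.79), Atf3 (4.24), Klf4 (4.26), Bdnf (4.45), Dusp4 (4.62) and Ier2 (4.67) were dim, and a change in so weak a signal can be missed or understated. A level is not set against that of another gene, since probe sets differ in brightness. Markers of excitatory cortical neurons were present in every group, with a list mean between 8.40 and 8.54 over 12 measured genes.

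The mean of the 35 genes on each array set SV129 CBE mice at the bottom of the series. Their 3 arrays had means of 6.38, 6.10 and 6.36, the 3 lowest of 24, against 6.40, 6.86 and 7.04 in SV129 PBS mice. SV129 PBS mouse 1 was the next lowest of the 24, just above the highest CBE mouse, while PBS mice 2 and 3 were the 8th and 4th highest of the series. The groups therefore did not overlap, but the gap between them was smaller than the spread within either one. That gap rests on Nr4a2, which read 9.87 in PBS mouse 1 and 6.79, 5.47 and 6.33 in the CBE mice. Without Nr4a2 in the mean, PBS mouse 1 would lie below CBE mice 1 and 3. The group means were 6.28 ± 0.15 in SV129 CBE and 6.77 ± 0.33 in SV129 PBS mice (SD, n = 3 each), a difference of -0.49 against a replicate SD of 0.26.

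The other strains had smaller differences in the mean of the list, in both directions. FVB CBE mice averaged 6.76 ± 0.15 and FVB PBS mice 6.58 ± 0.09, a difference of 0.18 with a replicate SD of 0.13. C57 CBE mice averaged 6.98 ± 0.06 and C57 PBS mice 7.10 ± 0.27, a difference of -0.12 with a replicate SD of 0.20. C3H CBE mice averaged 6.63 ± 0.14 and C3H PBS mice 6.54 ± 0.10, a difference of 0.09 with a replicate SD of 0.12. Only the SV129 and FVB differences were larger than the replicate SD of their own strain. With the median of the 35 genes on each array in place of their mean, SV129 differed by -0.85, FVB by 0.29, C57 by -0.31 and C3H by 0.04. Among CBE groups the order from high to low was C57, FVB, C3H and SV129, and among PBS groups it was C57, SV129, FVB and C3H, and the FVB and C3H means lay within 1 SD of each other under either agent.

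**Figure D1:**
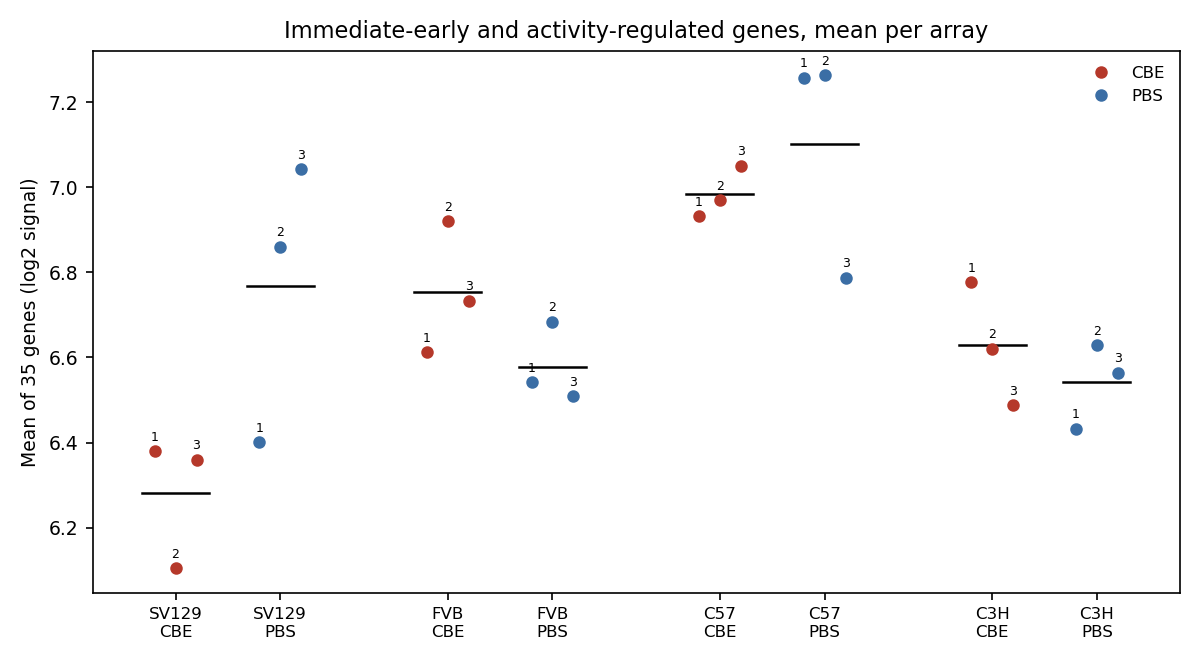
Mean log2 signal of the 35 genes on each array (vertical axis) for CBE (red) and PBS (blue) mice of each strain, with the replicate number beside each point and a bar at the group mean. The 3 SV129 CBE arrays (6.10 to 6.38) are the lowest of the 24, and SV129 PBS array 1 (6.40) lies just above them, apart from PBS arrays 2 and 3 (6.86 and 7.04). The step between SV129 PBS array 1 and the SV129 CBE arrays rests on Nr4a2.

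Immediate-early genes varied more between mice of a group than most transcripts did. The median SD within groups was 0.30 over the 35 genes, against 0.12 over all genes, and 27 of the 35 were among the 10% of genes with the widest spread. Among genes with a mean of at least 5 the medians were 0.32 for 29 listed genes and 0.13 for 9782 genes in all. Nr4a2, a nuclear receptor, had the widest spread at 0.79, followed by the activity-induced factors Npas4 (0.75) and Egr2 (0.56) and the synaptic gene Arc (0.51). Whole arrays moved together: 31 of the 35 genes were above their own mean on C57 PBS arrays 1 and 2, and 29 on SV129 PBS array 3. On SV129 PBS array 1 the count was 5, close to the 7, 4 and 7 of SV129 CBE arrays 1, 2 and 3. SV129 CBE array 2 held the lowest value of the series for 13 of the 35 genes.

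**Figure D2:**
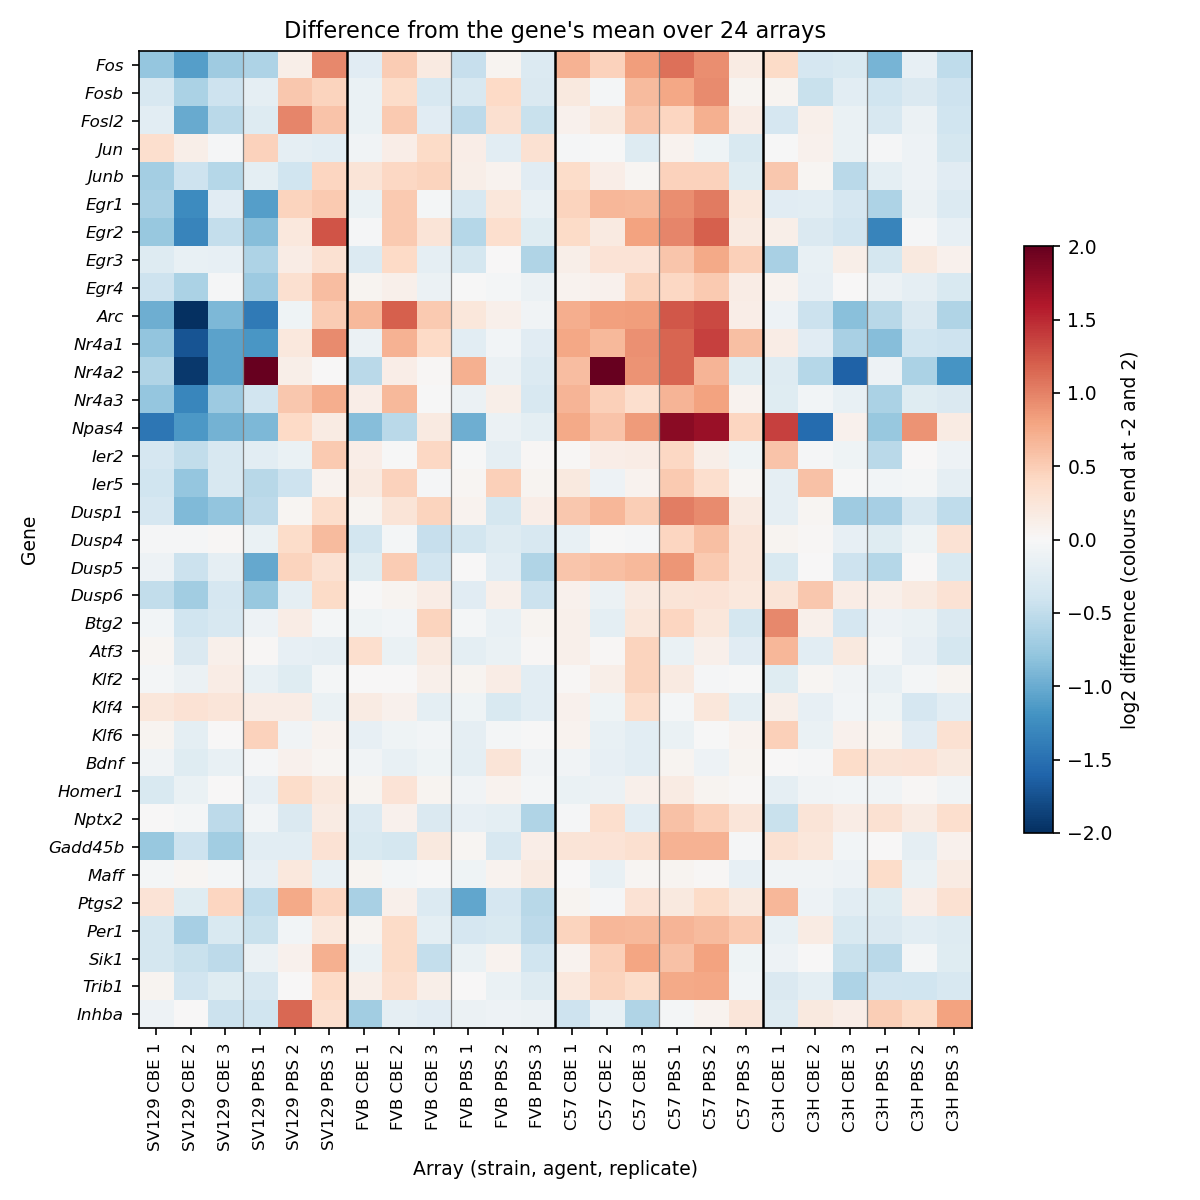
Log2 difference of each gene (rows) from its own mean over 24 arrays, with arrays in columns by strain and CBE left of PBS within a strain. Blue columns mark the SV129 CBE arrays and SV129 PBS array 1, and red columns mark C57 PBS arrays 1 and 2, where 31 of 35 genes were above their mean. Colours end at -2 and 2.

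In SV129, CBE against PBS mice, 1 of the 35 genes passed the threshold, an adjusted p under 0.05 over all 22180 genes: Nr4a3, which fell. Over all genes 0.0992% passed as lower. By direction alone, 30 of the 35 were lower, with a median of -0.35, against 50.7% of all genes and a median near 0. At an unadjusted p under 0.05, 17 genes were lower and 0 higher, against 8.66% and 4.35% of all genes. In 10 genes every CBE array lay below every PBS array (Fos, Fosb, Junb, Nr4a2, Nr4a3, Npas4, Ier2, Bdnf, Gadd45b and Sik1), where 8.99% of all genes did so. The reverse held for 1 gene, Klf4, where 6.52% of all genes did so. An exact permutation test of 3 against 3 mice cannot go below p = 0.1, so each test used a spread pooled over the 8 groups, and every p measures the spread between individual mice. Pooling treats the groups as equally spread, but the SD of the list mean was 0.33 in SV129 PBS mice and 0.06 to 0.27 elsewhere. For a gene spread more widely in SV129 PBS mice, the standard error of the SV129 difference can be too small.

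The NR4A receptors, orphan nuclear receptors induced by activity, had the lowest values relative to PBS in SV129. Nr4a3 (probe set 17413945) read 6.14, 5.61 and 6.19 in the CBE mice, against 6.54, 7.46 and 7.65 in the PBS mice. No CBE value reached a PBS value, and PBS mouse 1 was the lowest of its group. Nr4a3 fell by 1.24 ± 0.24 (SE), to 2.35-fold below PBS (adjusted p = 0.044). Mean Nr4a3 levels of CBE against PBS mice were 7.17 ± 0.34 against 6.81 ± 0.22 in FVB, 7.41 ± 0.17 against 7.44 ± 0.39 in C57 and 6.77 ± 0.09 against 6.52 ± 0.21 in C3H (SD, n = 3). In no other strain was Nr4a3 past the threshold, and the test of the SV129 change against the mean change of the other strains missed it at -1.43 ± 0.27 (adjusted p = 0.083).

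Nr4a1 (probe set 17315178), known as Nur77, read 7.96, 7.02 and 7.68 in the CBE mice, against 7.59, 8.96 and 9.69 in the PBS mice in SV129. PBS mouse 1 lay among the CBE mice and PBS mice 2 and 3 lay above them all. The Nr4a1 difference was -1.19 ± 0.35 (adjusted p = 0.15). Mean Nr4a1 levels of CBE against PBS mice were 9.08 ± 0.41 against 8.59 ± 0.10 in FVB, 9.53 ± 0.13 against 9.80 ± 0.40 in C57 and 8.51 ± 0.40 against 8.20 ± 0.26 in C3H. Nr4a2 (probe set 17385374), known as Nurr1 and marking neurons of the claustrum and deep cortex as well as responding to activity, read 6.79, 5.47 and 6.33 in the CBE mice, against 9.87, 7.51 and 7.41 in the PBS mice in SV129. Here PBS mouse 1 was by far the highest of its group, against its low place for most other genes on the list. The Nr4a2 difference was the largest in size of the 35, at -2.07 ± 0.56 or 4.19-fold lower, and with its wide spread missed the threshold (adjusted p = 0.12). Mean Nr4a2 levels of CBE against PBS mice were 7.27 ± 0.36 against 7.50 ± 0.53 in FVB, 8.67 ± 0.92 against 7.93 ± 0.72 in C57 and 6.58 ± 0.72 against 6.76 ± 0.55 in C3H.

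Of the FOS and JUN factors, whose proteins pair to form AP-1, 4 of 5 were lower in SV129 CBE mice, with a median of -0.72, and 0 passed. Fos (probe set 17277387), the classic marker of recent firing, read 5.40, 5.07 and 5.46 in the CBE mice, against 5.55, 6.29 and 7.14 in the PBS mice. All CBE values were below all PBS values, by a narrow step at PBS mouse 1 and a wide one at mouse 3. Fos differed by -1.02 ± 0.31 (adjusted p = 0.15), a 2.03-fold lower level, and mean Fos levels of CBE against PBS mice were 6.32 ± 0.36 against 5.94 ± 0.26 in FVB, 6.83 ± 0.19 against 6.90 ± 0.49 in C57 and 6.09 ± 0.40 against 5.64 ± 0.38 in C3H. Fosb (probe set 17487211), whose shortened form builds up with repeated activity, read 5.11, 4.80 and 5.02 in the CBE mice, against 5.25, 5.97 and 5.87 in the PBS mice. Its groups did not overlap either, and the difference was -0.72 ± 0.24 (adjusted p = 0.19). Mean Fosb levels of CBE against PBS mice were 5.41 ± 0.35 against 5.37 ± 0.40 in FVB, 5.70 ± 0.34 against 6.03 ± 0.47 in C57 and 5.23 ± 0.25 against 5.07 ± 0.07 in C3H.

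Fosl2 (probe set 17436237), encoding the FOS-related protein FRA2, read 6.87, 6.07 and 6.54 in the CBE mice, against 6.82, 8.06 and 7.65 in the PBS mice in SV129. PBS mouse 1 lay within the CBE range, and PBS mice 2 and 3 lay above it. The Fosl2 difference was -1.02 ± 0.27 (adjusted p = 0.12), with CBE against PBS means of 7.14 ± 0.41 against 6.86 ± 0.47 in FVB, 7.35 ± 0.24 against 7.51 ± 0.28 in C57 and 6.96 ± 0.22 against 6.80 ± 0.14 in C3H. Junb (probe set 17511259), a JUN protein that restrains c-JUN at many targets, read 5.84, 6.10 and 5.94 in the CBE mice, against 6.32, 6.12 and 6.95 in the PBS mice. The groups did not overlap, although CBE mouse 2 and PBS mouse 2 nearly met, and the difference was -0.50 ± 0.22 (adjusted p = 0.32). Junb means of CBE against PBS mice were 6.89 ± 0.10 against 6.50 ± 0.18 in FVB, 6.69 ± 0.16 against 6.74 ± 0.40 in C57 and 6.53 ± 0.54 against 6.34 ± 0.07 in C3H. Jun, encoding c-JUN, was the exception of the family at 0.12 (adjusted p = 0.82), with overlapping groups.

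The EGR zinc-finger factors were lower in SV129 CBE mice in 4 of 4 cases, with a median of -0.55, and 0 passed. Egr1 (probe set 17349514), also called Zif268 and tied to lasting synaptic change, read 8.76, 8.15 and 9.18 in the CBE mice, against 8.31, 9.85 and 9.94 in the PBS mice. PBS mouse 1 sat inside the CBE range while PBS mice 2 and 3 sat above it. Egr1 differed by -0.67 ± 0.32 (adjusted p = 0.38), and CBE against PBS means were 9.53 ± 0.35 against 9.32 ± 0.27 in FVB, 9.99 ± 0.12 against 10.14 ± 0.44 in C57 and 9.15 ± 0.06 against 9.07 ± 0.26 in C3H. Egr2, a relative also needed for myelination by Schwann cells, differed by -1.05 ± 0.40 (adjusted p = 0.25), Egr4 by -0.42 ± 0.22 (adjusted p = 0.42) and Egr3 by -0.13 ± 0.22 (adjusted p = 0.86). On PBS mouse 1 of SV129, Egr3 and Egr4 were below all 3 CBE mice.

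Among the effectors, proteins that act at the synapse or are secreted, 6 of 6 were lower in SV129 CBE mice, with a median of -0.23, and 0 passed. Arc (probe set 17317983), which helps remove AMPA receptors from active synapses, read 8.66, 7.63 and 8.74 in the CBE mice, against 8.23, 9.56 and 10.15 in the PBS mice. CBE mouse 2 had the lowest Arc value of all 24 mice, and PBS mouse 1 lay within the CBE range. Arc differed by -0.97 ± 0.37 (adjusted p = 0.25), and CBE against PBS means were 10.43 ± 0.35 against 9.73 ± 0.15 in FVB, 10.44 ± 0.06 against 10.54 ± 0.66 in C57 and 9.19 ± 0.36 against 9.16 ± 0.17 in C3H. Bdnf (probe set 17374077), the neurotrophin released by active neurons, read 4.38, 4.21 and 4.31 in the CBE mice, against 4.43, 4.54 and 4.50 in the PBS mice. The Bdnf groups did not overlap, but the signal was dim and the difference small, at -0.19 ± 0.10 (adjusted p = 0.45). Bdnf means of CBE against PBS mice were 4.35 ± 0.04 against 4.46 ± 0.23 in FVB, 4.31 ± 0.07 against 4.46 ± 0.09 in C57 and 4.57 ± 0.21 against 4.70 ± 0.04 in C3H. The scaffold gene Homer1, measured by a probe set not assigned here to its short activity-induced form, differed by -0.28 (adjusted p = 0.25). Inhba, a subunit of activin A, differed by -0.54 (adjusted p = 0.35), Nptx2, a secreted pentraxin that gathers AMPA receptors, by -0.13 (adjusted p = 0.82) and Ptgs2, cyclooxygenase 2, by -0.07 (adjusted p = 0.94).

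The kinase regulators, which shut down or shape MAP kinase and CREB signalling, were lower in SV129 CBE mice in 6 of 6 cases, with a median of -0.31, and 0 passed. Dusp1 (probe set 17342642), a nuclear phosphatase of MAP kinases, read 7.54, 7.00 and 7.09 in the CBE mice, against 7.35, 7.92 and 8.23 in the PBS mice. PBS mouse 1 lay among the CBE mice, and the difference was -0.62 ± 0.23 (adjusted p = 0.24). Dusp1 means of CBE against PBS mice were 8.13 ± 0.20 against 7.83 ± 0.26 in FVB, 8.44 ± 0.09 against 8.59 ± 0.47 in C57 and 7.59 ± 0.38 against 7.38 ± 0.17 in C3H. Dusp6 (probe set 17236882), a cytoplasmic phosphatase of ERK, read 9.36, 9.16 and 9.52 in the CBE mice, against 9.10, 9.67 and 10.24 in the PBS mice, with PBS mouse 1 below every CBE mouse. The Dusp6 difference was -0.32 ± 0.19 (adjusted p = 0.49), and CBE against PBS means were 9.92 ± 0.07 against 9.67 ± 0.27 in FVB, 9.90 ± 0.15 against 10.10 ± 0.03 in C57 and 10.17 ± 0.20 against 10.05 ± 0.10 in C3H. A dimmer probe set of Dusp6 (17547559, mean 4.50) averaged 4.53 in both SV129 groups, so the 2 probe sets of the gene did not give the same value.

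Sik1 (probe set 17343263), a salt-inducible kinase that holds back the CREB coactivators, read 5.73, 5.64 and 5.56 in the CBE mice, against 5.96, 6.17 and 6.79 in the PBS mice in SV129. No CBE value reached a PBS value, and the difference was -0.67 ± 0.24 (adjusted p = 0.23). Sik1 means of CBE against PBS mice were 6.01 ± 0.43 against 5.93 ± 0.23 in FVB, 6.53 ± 0.36 against 6.52 ± 0.46 in C57 and 5.90 ± 0.23 against 5.81 ± 0.25 in C3H. The ERK phosphatases Dusp4 and Dusp5 differed by -0.30 (adjusted p = 0.41) and -0.15 (adjusted p = 0.88), and the pseudokinase Trib1 by -0.21 (adjusted p = 0.68).

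The remaining regulators split, with 7 of 11 lower in SV129 CBE mice, a median of -0.20 and 0 past the threshold. Npas4 (probe set 17361435), a factor induced in neurons by calcium entry, read 4.32, 4.62 and 4.81 in the CBE mice, against 4.86, 6.16 and 5.92 in the PBS mice. The groups did not overlap, with PBS mouse 1 close to the CBE mice, and the difference was -1.06 ± 0.53 (adjusted p = 0.41) or 2.09-fold lower. Npas4 means of CBE against PBS mice were 5.36 ± 0.53 against 5.33 ± 0.47 in FVB, 6.48 ± 0.14 against 7.08 ± 0.77 in C57 and 5.73 ± 1.45 against 5.86 ± 0.83 in C3H, with an SD above 1 in C3H CBE mice. Gadd45b (probe set 17235511), a stress protein linked to activity-dependent DNA demethylation, read 6.29, 6.64 and 6.35 in the CBE mice, against 6.84, 6.83 and 7.33 in the PBS mice. Every CBE value was below every PBS value, at a difference of -0.57 ± 0.18 (adjusted p = 0.18). Gadd45b means of CBE against PBS mice were 6.90 ± 0.30 against 7.00 ± 0.24 in FVB, 7.33 ± 0.04 against 7.50 ± 0.42 in C57 and 7.21 ± 0.18 against 7.02 ± 0.14 in C3H.

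Per1 (probe set 17251527), a clock gene that CREB also induces, read 8.67, 8.36 and 8.72 in the CBE mice, against 8.58, 8.98 and 9.23 in the PBS mice in SV129. PBS mouse 1 lay among the CBE mice, and the difference was -0.35 ± 0.15 (adjusted p = 0.32). Per1 means of CBE against PBS mice were 9.11 ± 0.28 against 8.63 ± 0.12 in FVB, 9.61 ± 0.12 against 9.63 ± 0.08 in C57 and 8.93 ± 0.24 against 8.77 ± 0.04 in C3H. Ier5 (probe set 17228349), an immediate-early regulator, read 7.05, 6.69 and 7.14 in the CBE mice, against 6.90, 7.03 and 7.52 in the PBS mice, with overlapping groups and a difference of -0.19 ± 0.19 (adjusted p = 0.72). Ier5 means of CBE against PBS mice were 7.66 ± 0.24 against 7.64 ± 0.25 in FVB, 7.51 ± 0.15 against 7.76 ± 0.24 in C57 and 7.58 ± 0.40 against 7.36 ± 0.07 in C3H. Its relative Ier2 differed by -0.45 (adjusted p = 0.3), and the antiproliferative gene Btg2 by -0.26 (adjusted p = 0.68). The stress-induced factor Atf3 (0.05), the small MAF protein gene Maff (0.03) and the Krüppel-like factors Klf2 (0.14), Klf4 (0.19) and Klf6 (-0.20) had adjusted p from 0.54 to 0.95.

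Single SV129 arrays set much of the size of this difference. Each PBS mouse was first placed against the 3 CBE mice of the strain. PBS mouse 3 was above all of them for 30 of the 35 genes and PBS mouse 2 for 27, but PBS mouse 1 for only 12, with 14 genes inside the CBE range and 9 below it. Over all genes the shares above were 30.3%, 30.3% and 26.2% for mice 3, 2 and 1. PBS mouse 1 thus had levels of these genes near those of the CBE mice, below the other PBS mice.

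With SV129 PBS mouse 1 left out, the difference of the list mean was -0.67 in place of -0.49, 10 genes passed as lower (Fos, Fosl2, Egr1, Egr2, Egr4, Arc, Nr4a1, Nr4a3, Homer1 and Inhba), where 0.794% of all genes did, and 22 were lower at an unadjusted p under 0.05, against 10.4% of all genes. In that fit Nr4a1 differed by -1.77 ± 0.28 (adjusted p = 0.0063), Nr4a3 by -1.57 ± 0.21 (adjusted p = 0.0034), Arc by -1.51 ± 0.32 (adjusted p = 0.032) and Fos by -1.41 ± 0.29 (adjusted p = 0.03). Without PBS mouse 3, the highest of its group, the list mean differed by -0.35, 0 genes passed (0.14% of all genes did as lower) and 7 were lower at an unadjusted p under 0.05, against 8.21% of all genes. Without PBS mouse 2 it differed by -0.44, with 0 passing and 12 lower unadjusted, against 5.84% of all genes. On the CBE side, leaving out mouse 2, the lowest of the series, gave -0.40, with 0 passing and 11 lower unadjusted, against 6.08% of all genes. Leaving out CBE mouse 1 gave -0.54, with 1 passing and 13 lower unadjusted, against 9.44%, and leaving out CBE mouse 3 gave -0.53, with 0 passing and 16 lower unadjusted, against 7.16%. In all 6 of these settings between 28 and 31 of the 35 genes were lower. The direction of the list mean rested on no single SV129 array, whereas the count of genes past the threshold ran from 0 to 10.

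The Nr4a3 call held without 16 of the 24 arrays and was lost without any of the other 8. Among SV129 arrays its adjusted p was 0.19 without PBS mouse 2, 0.093 without PBS mouse 3, 0.19 without CBE mouse 2 and 0.064 without CBE mouse 3. Outside SV129 it lay between 0.051 and 0.059 without FVB PBS mouse 1, C57 PBS mouse 1, C57 CBE mouse 2 or C3H CBE mouse 3, which leave the difference itself at -1.24. It was also lost with only the 6 arrays of the strain in the fit (adjusted p = 0.39) and after quantile normalization (adjusted p = 0.056).

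**Figure D3:**
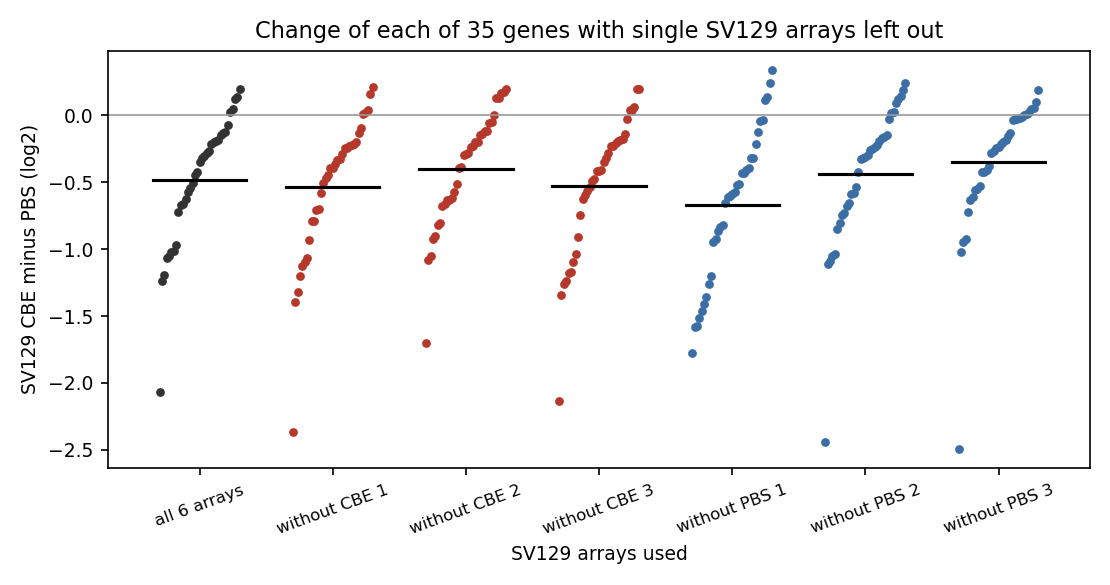
CBE minus PBS in SV129 (log2, vertical axis) for each of the 35 genes (points) with all 6 arrays and with each SV129 array left out, with a bar at the mean. The bar moves between -0.67 without PBS array 1 and -0.35 without PBS array 3 and stays below 0 in all settings shown.

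In FVB the list leaned the other way: 29 of 35 genes were higher in CBE mice, with a median of 0.20, while 54.6% of all genes were lower, and 0 passed, where 0.135% of all genes did. At an unadjusted p under 0.05, 1 gene was higher and 0 were lower, against 2.94% and 3.33% of all genes. Arc read 10.29, 10.83 and 10.17 in the CBE mice, against 9.86, 9.74 and 9.57 in the PBS mice, and these groups did not overlap. Its difference of 0.70 ± 0.37 (adjusted p = 0.83) was the highest of the list, followed by Nr4a1 at 0.49 ± 0.35 (adjusted p = 0.89). Per1 was the gene with an unadjusted p under 0.05, at 0.47 ± 0.15 (adjusted p = 0.46). The lowest differences were Inhba at -0.26 ± 0.25 (adjusted p = 0.93) and Nr4a2 at -0.23 ± 0.56 (adjusted p = 0.98), and Nr4a2 was at 0.07 without FVB PBS mouse 1. Every CBE array lay above every PBS array for 4 genes (Junb, Arc, Per1 and Trib1), where 5.09% of all genes did so, and below for Inhba, where 5.96% did so.

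In C57, 27 of 35 genes were lower in CBE mice, with a median of -0.15, against 54.9% of all genes, and 0 passed, where 0.325% of all genes did. With p unadjusted and under 0.05, 0 genes were higher and 2 lower (Dusp4 and Nptx2), against 2.87% and 2.91% of all genes. Nr4a2 was highest in CBE relative to PBS, with 8.01, 9.72 and 8.29 in the CBE mice, against 8.56, 8.08 and 7.15 in the PBS mice, overlapping groups and a difference of 0.74 ± 0.56 (adjusted p = 0.98). Atf3 followed at 0.28 ± 0.17 (adjusted p = 0.95). Npas4 was the lowest, with 6.51, 6.33 and 6.61 in the CBE mice, against 7.56, 7.48 and 6.19 in the PBS mice. PBS mice 1 and 2 were above all CBE mice and PBS mouse 3 was below them, for a difference of -0.59 ± 0.53 (adjusted p = 1). Inhba differed by -0.48 ± 0.25 (adjusted p = 0.88). Every CBE array lay below every PBS array for Egr3, Dusp4, Dusp6 and Inhba, where 7.22% of all genes did so, and above for 0 genes, where 5.82% did so. The split among PBS mice was general here too: PBS mice 1 and 2 were above all 3 CBE mice for 25 and 23 of the 35 genes and PBS mouse 3 for 6, where the shares over all genes were 29.5%, 26.7% and 28.7% for mice 1, 2 and 3.

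In C3H, 25 of 35 genes were higher in CBE mice, with a median of 0.12, while 52.6% of all genes were lower, and 0 passed, where 0.0361% of all genes did. With p unadjusted and under 0.05, 1 gene was higher (Atf3) and 1 lower (Inhba), against 2.91% and 2.11% of all genes. Fos had the highest difference, at 0.45 ± 0.31 (adjusted p = 1), with 6.55, 5.84 and 5.87 in the CBE mice, against 5.24, 6.00 and 5.67 in the PBS mice and overlapping groups. Btg2 followed at 0.42 ± 0.23 (adjusted p = 1), carried by CBE mouse 1. Inhba read 4.84, 5.31 and 5.24 in the CBE mice, against 5.60, 5.49 and 5.91 in the PBS mice, with no overlap and a difference of -0.53 ± 0.25 (adjusted p = 0.96). Maff had the next lowest difference at -0.22 ± 0.11 (adjusted p = 1). Nr4a3 was the gene whose CBE arrays all lay above its PBS arrays, where 4.50% of all genes did so, and Inhba the one whose CBE arrays all lay below, where 5.17% did so.

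Averaged over the 4 strains, 0 of the 35 genes passed, where 0.726% of all genes did (0.609% as higher and 0.117% as lower). With p unadjusted and under 0.05, 2 genes were higher and 3 lower, against 3.98% and 6.77% of all genes. Inhba had the smallest p, at -0.45 ± 0.12 (adjusted p = 0.11), and was the one gene among the lowest differences of FVB, C57 and C3H alike. In SV129 Inhba read 5.01, 5.11 and 4.68 in the CBE mice, against 4.71, 6.26 and 5.45 in the PBS mice, where PBS mouse 1 was again among the CBE mice. Without that array the Inhba mean over 4 strains was -0.55 ± 0.09 (adjusted p = 0.0033). Of the 24 fits that left out 1 array, this was the only 1 in which any of the 35 genes passed. The share of all genes passing in that fit is not given here. The other unadjusted genes were Bdnf at -0.14 (adjusted p = 0.27), Dusp4 at -0.20 (adjusted p = 0.34), Atf3 at 0.24 (adjusted p = 0.27) and Klf4 at 0.18 (adjusted p = 0.26).

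Whether SV129 differed from the other strains in its change was tested directly. The SV129 change minus the mean change of FVB, C57 and C3H passed for 0 of the 35 genes, where 0.0135% of all genes passed, and was lower for 30, with a median of -0.44. At an unadjusted p under 0.05 it was lower for 15 genes and higher for 0, against 6.07% and 4.25% of all genes. Nr4a3 came closest, at -1.43 ± 0.27 (adjusted p = 0.083), followed by Fos at -1.27 ± 0.36 (adjusted p = 0.24) and Fosl2 at -1.11 ± 0.32 (adjusted p = 0.24). The test of equal change in all 4 strains passed for 0 genes, where 0.00902% of all genes passed, and 9 had an unadjusted p under 0.05, against 6.57% of all genes. Without SV129 PBS mouse 1 the difference of changes passed for Nr4a1 at -1.95 ± 0.32 (adjusted p = 0.014) and Nr4a3 at -1.77 ± 0.24 (adjusted p = 0.0081), and equal change was rejected for Nr4a3 (adjusted p = 0.033). For Nr4a3, the difference of changes had adjusted p = 0.21 without SV129 PBS mouse 2 and 0.15 without PBS mouse 3. It had 0.3 without SV129 CBE mouse 2, 0.083 without CBE mouse 1 and 0.093 without CBE mouse 3. Equal change was not rejected for Nr4a3 in those fits (adjusted p = 0.32 to 0.66). Leaving out SV129 PBS mouse 1 raised calls over all genes too: in SV129 CBE against PBS, 0.794% passed as lower, against 0.0992% with all arrays. The share of all genes passing the difference of changes in that fit is not given here.

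Levels were then compared between strains within each agent, where the CBE contrast shares no array with the PBS contrast but both share their spread estimate. Among CBE mice, SV129 was below the mean of the other 3 strains for 29 of 35 genes, with a median of -0.47, and 10 genes passed, all lower, where 1.90% of all genes passed as lower and 3.53% in either direction. They were Arc at -1.68 ± 0.30 (adjusted p = 0.0019), Nr4a1 at -1.49 ± 0.29 (adjusted p = 0.004), Nr4a3 at -1.14 ± 0.19 (adjusted p = 0.0012), Fos at -1.11 ± 0.25 (adjusted p = 0.013) and Dusp1 at -0.85 ± 0.19 (adjusted p = 0.011). The others were Junb at -0.74 ± 0.18 (adjusted p = 0.02), Gadd45b at -0.72 ± 0.15 (adjusted p = 0.0071), Dusp6 at -0.65 ± 0.15 (adjusted p = 0.016), Per1 at -0.63 ± 0.12 (adjusted p = 0.0035) and Ier5 at -0.62 ± 0.15 (adjusted p = 0.024). They include transcription factors, a synaptic effector and phosphatases, so no single role on the list holds them all. The count was 3 (Arc, Nr4a3 and Gadd45b) without SV129 CBE mouse 2, where 0.978% of all genes passed as lower, and 5 (Arc, Nr4a1, Nr4a3, Dusp1 and Per1) without SV129 CBE mouse 1, where 1.23% did. It was 15, where 2.07% of all genes passed as lower, without SV129 PBS mouse 1, an array that enters this contrast only through the spread estimate.

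Among PBS mice, SV129 against the other 3 strains passed for 0 of the 35 genes, where 4.14% of all genes passed (2.98% as higher and 1.16% as lower), with a median of 0.03 and 19 genes higher and 16 lower. The widths were large: the difference was -0.49 ± 0.30 for Arc (95% interval -1.12 to 0.13), -0.11 ± 0.29 for Nr4a1 (-0.71 to 0.49) and 0.16 ± 0.25 for Fos (-0.36 to 0.69). The signs rested on single arrays: Arc differed by 0.05 and Nr4a1 by 0.47 without SV129 PBS mouse 1, and Fos by -0.24 without SV129 PBS mouse 3. Without SV129 PBS mouse 1, Dusp4 passed as higher, and without SV129 PBS mouse 3, Ier5 and Dusp6 passed as lower. At most 2 of the 35 genes passed in any such fit. With all arrays 2.98% of all genes passed as higher and 1.16% as lower, and the shares in the fits without 1 array are not given here. These calls are therefore not read as a trait of the list. A gene past the threshold among CBE mice and not among PBS mice is not shown to differ between them: that difference is the difference of changes given above, which passed for 0 genes.

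**Figure D4:**
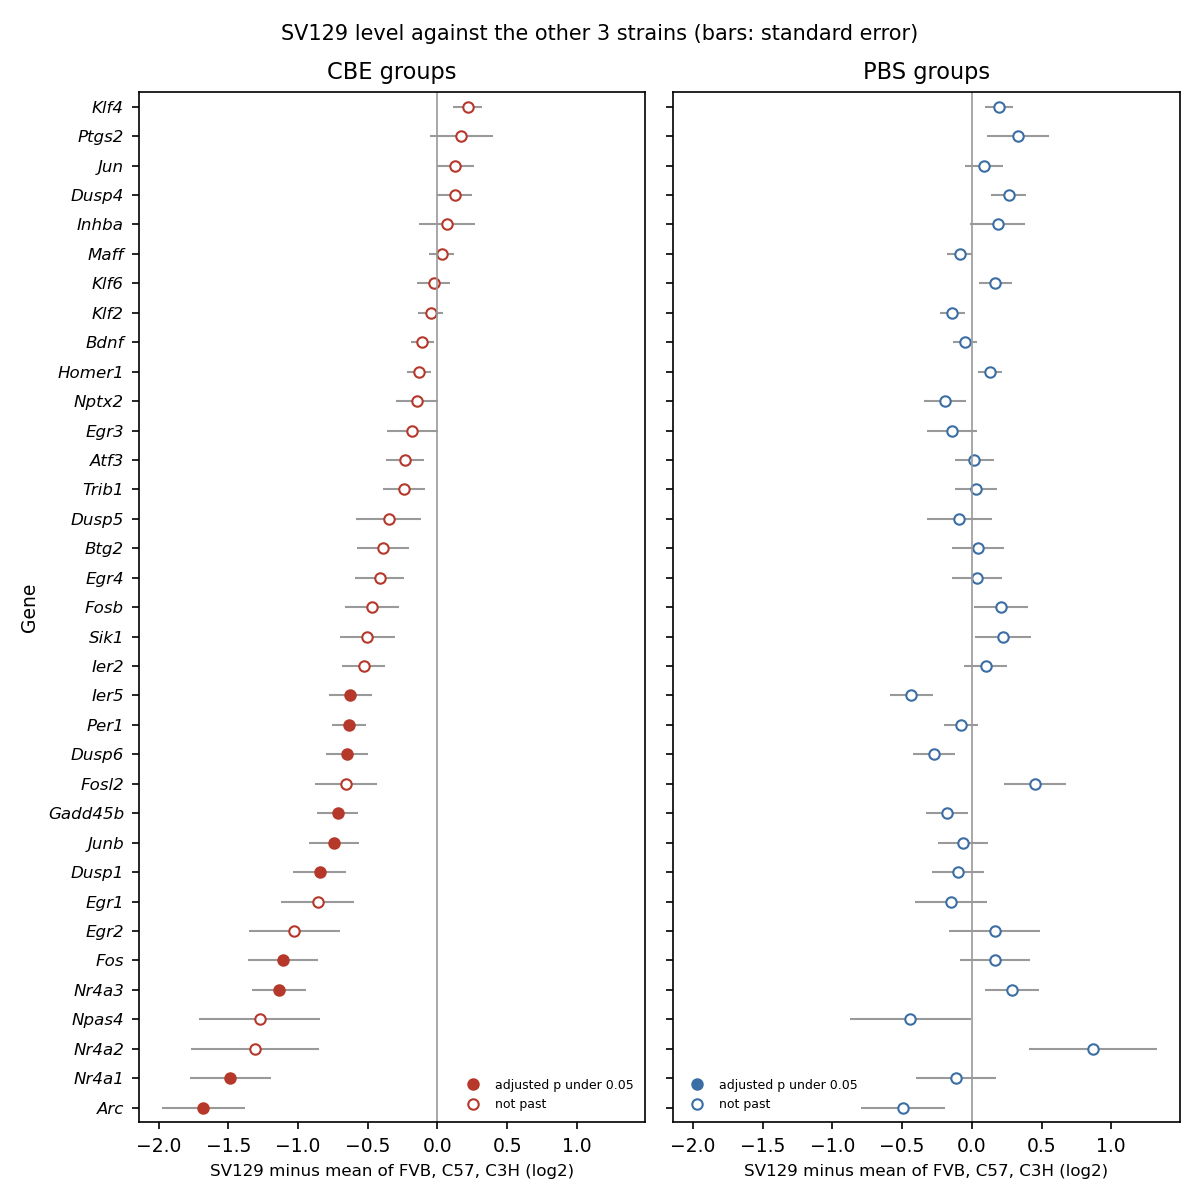
SV129 level minus the mean of FVB, C57 and C3H (log2, horizontal axis) for each gene, among CBE mice (left) and among PBS mice (right), with bars for the standard error and filled points for an adjusted p under 0.05. Among CBE mice 10 genes are filled, all to the left of 0, and among PBS mice 0 are filled.

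Other genes known to follow neuronal activity, a separate list of 50 of which 44 were measured, showed a smaller lean. In SV129, 32 of 44 were lower in CBE than in PBS mice, with a median of -0.13, and 0 passed. Over all genes 50.7% were lower and 0.113% passed. At an unadjusted p under 0.05, 7 of the 44 were lower and 0 higher, against 8.66% and 4.35% of all genes. The smallest p belonged to Rgs2, a regulator of G-protein signalling, at -0.35 ± 0.10 (adjusted p = 0.15), and Pcsk1, a prohormone convertase, at -0.36 ± 0.11 (adjusted p = 0.17). The mean of this list was 6.77 ± 0.05 in SV129 CBE and 6.88 ± 0.07 in SV129 PBS mice (SD, n = 3 each). Among CBE mice 1 of the 44, Acan, the perineuronal net protein aggrecan, was lower in SV129 than in the other strains at -0.29 ± 0.07 (adjusted p = 0.029), where 1.90% of all genes passed as lower. Acan was dim, at 3.40 to 3.58 in SV129 CBE and 3.58 to 3.91 in other CBE mice, below the median of all values of 4.18. Among PBS mice Tiparp, a poly-ADP-ribose polymerase, was higher at 0.42 ± 0.10 (adjusted p = 0.023), as was Syt4, a synaptotagmin, at 0.34 ± 0.07 (adjusted p = 0.0041). Over all genes 2.98% passed as higher in SV129 among PBS mice.

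Upstream of the immediate-early genes, the calcium, MAP kinase and transcription factor genes were nearly balanced in SV129. Of 31 measured (of 38 listed), 19 were lower in CBE mice, with a median of -0.02, and 0 passed. At an unadjusted p under 0.05, 4 were lower and 1 higher, against 8.66% and 4.35% of all genes. The smallest p belonged to Mrtfa, a coactivator of SRF, at 0.33 ± 0.09 (adjusted p = 0.12), and Rps6ka5, a kinase of CREB and histone H3, at -0.50 ± 0.14 (adjusted p = 0.13). Srf itself was lower in SV129 than in the other strains among PBS mice, at -0.41 ± 0.10 (adjusted p = 0.019). Camk2a, the calcium-dependent kinase of excitatory synapses, was higher in SV129 in both settings, at 0.29 ± 0.05 among CBE mice (adjusted p = 0.0025) and 0.19 ± 0.05 among PBS mice (adjusted p = 0.044). Mrtfa was higher in SV129 among CBE mice, at 0.40 ± 0.07 (adjusted p = 0.002). Over all genes, 1.63% passed as higher in SV129 among CBE mice, and 2.98% as higher and 1.16% as lower among PBS mice. Transcript levels of these genes do not report the activity of their proteins.

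Markers of neighbouring regions and of other cells were measured beside these results, since the section can hold more than cortex. The thalamus list differed between the SV129 groups: 8 of 11 markers were lower in CBE mice, where 50.7% of all genes were. Of these 1 passed, against 0.0992% of all genes as lower: Ntng1, encoding netrin-G1 of thalamic axons (-0.82 ± 0.13, adjusted p = 0.01). The summed log2 level was 61.3 to 61.6 in CBE mice, against 63.0 to 63.8 in PBS mice. SV129 PBS mice had the highest list mean of all groups, 5.77, while SV129 CBE mice had 5.58 and the other strains 5.55 to 5.64. Among PBS mice, 9 of 11 markers were higher in SV129 than in the other strains. Of them 2 passed, against 2.98% of all genes as higher. None of these markers was at 0, and their part in the result was not tested. The thalamus list mean was 5.78 in SV129 PBS mouse 1, against 5.80 and 5.73 in PBS mice 2 and 3. Single markers went both ways in PBS mouse 1: Ntng1 was the highest of its group (8.65) and Slc17a6 the lowest (8.21). Excitatory neuron markers were lower in 6 of 12 cases, with list means of 8.55, 8.36 and 8.29 in CBE mice, against 8.39, 8.44 and 8.59 in PBS mice, which overlap. Heat shock genes were lower in 4 of 8 cases in SV129 with 0 past the threshold, and glucocorticoid-responsive genes were higher in 10 of 11 with 0 past it.

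Nr4a2 is also a marker of claustrum and subplate neurons, and 8 other markers of those cells were chosen after its values were seen. Nr4a2 was highest of all 24 arrays on SV129 PBS array 1 (9.87) and C57 CBE array 2 (9.72). For 3 of the 8 markers the same arrays had the highest 2 values: Gnb4, a G-protein subunit, at 8.98 and 8.63, Oprk1, the kappa opioid receptor, at 5.75 and 5.51, and Lxn, latexin, at 9.63 and 9.62. The other markers were mixed: Ntng2 and Gng2 were highest on SV129 PBS array 1 but 11th and 6th on C57 CBE array 2, Synpr was 3rd and highest on them, and Cplx3 (12th and 3rd) and Nxph4 (4th and 3rd) were highest on FVB PBS array 1, at 6.95 and 4.93. The mean of the 8 markers was 6.99 on SV129 PBS array 1 and 6.91 on C57 CBE array 2, and at most 6.76 on any other array. Without SV129 PBS array 1 the Nr4a2 difference in SV129 was -1.26 in place of -2.07. The part of the dissected region in the Nr4a2 values was not tested.

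**Figure D5:**
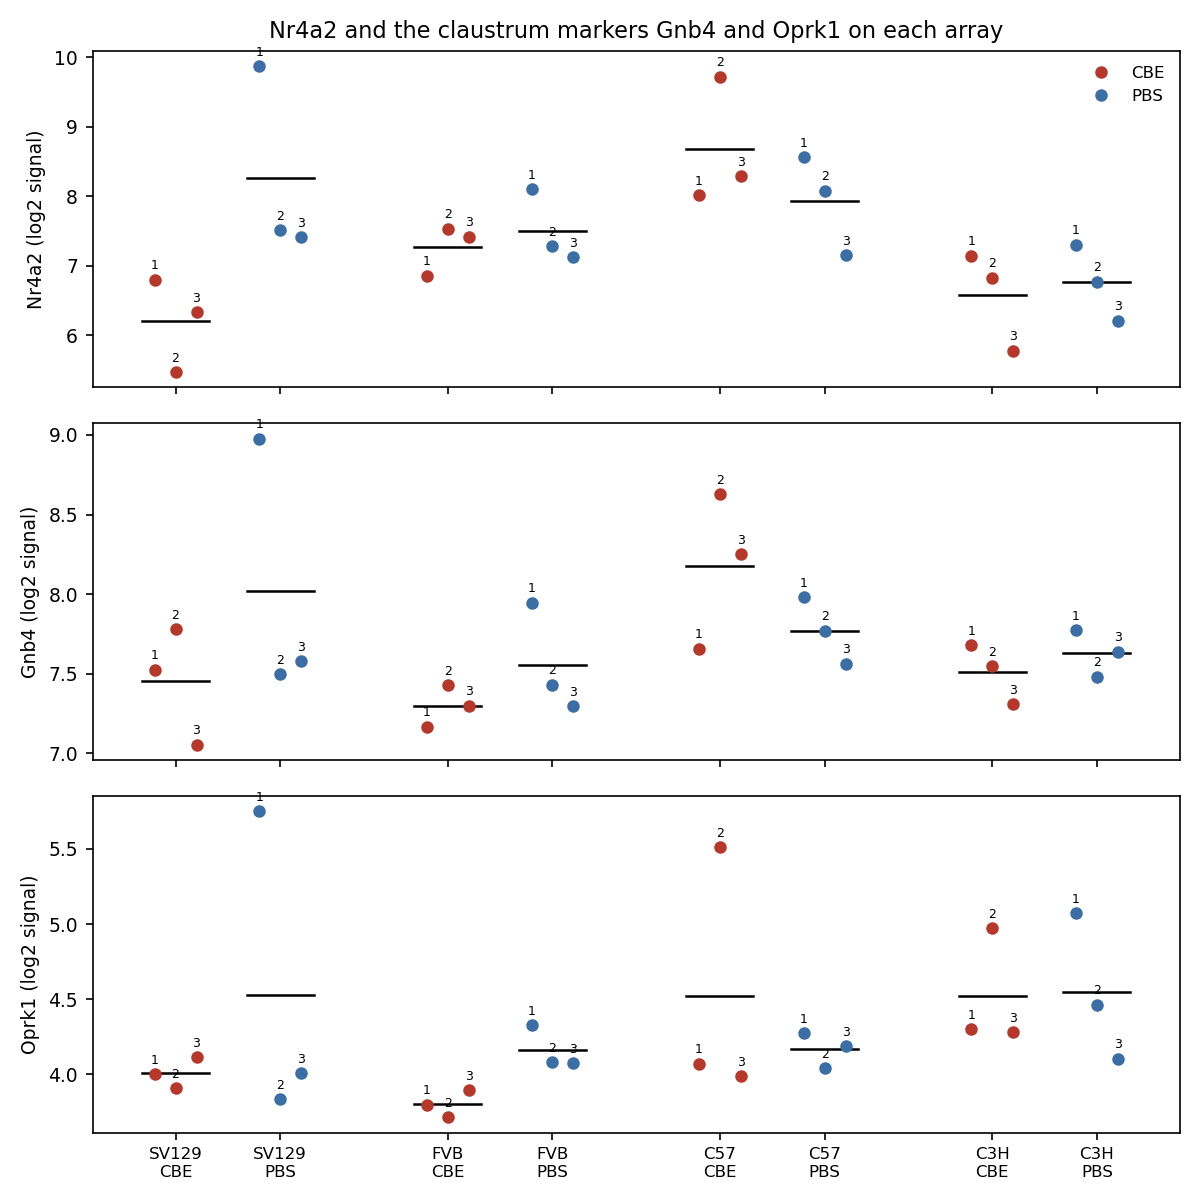
Log2 signal (vertical axes) of Nr4a2 and the claustrum markers Gnb4 and Oprk1 on each array, for CBE (red) and PBS (blue) mice of each strain, with replicate numbers and a bar at the group mean. SV129 PBS array 1 and C57 CBE array 2 are the highest in all 3 panels. Gnb4 and Oprk1 come from 8 markers chosen after the Nr4a2 values were seen, and these arrays were the highest 2 for only 3 of the 8.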

How the data were processed

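Each of 24 mice gave 1 array of cortex RNA, and the labels name 8 groups of 3. The authors deposited log2 values for 41034 probe sets; Partek and RMA were used per the submitters' processing notes, with versions and settings not given in the sources used here, and the log base was read from the range of the values. Platform symbols named 23521 probe sets with 1 gene, 1814 with several and 15699 with none; the highest-mean probe set of each symbol left 22180 genes. A mean per group was fitted to all 24 arrays with limma 3.58.1 (R 4.3.3), with 16 residual degrees of freedom and a prior of 5.10. The p-values were two-sided and adjusted (Benjamini-Hochberg) over all genes within a contrast, with 0.05 as the threshold, and ± is the standard error for a difference and the SD for a group. The script was tested on simulated data. Motifs were matched in RefSeq windows with Python 3.11.15.

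The 35 members, the 15 lists of other genes, the tests and the alternatives were chosen with earlier results of these data known, and a list of 8 claustrum and subplate markers was added after values were seen. Members named in full were those past the threshold in any contrast, the 10 with the smallest p in SV129, and Fos, Arc, Egr1, Npas4 and Bdnf. In each other strain the 2 highest and the 2 lowest differences were named. The labels do not say whether replicate numbers pair the samples, and the main fit did not pair them. Of 12 pairs of same-numbered CBE and PBS arrays, 3 had correlated deviations over 0.1 (range -0.19 to 0.20). Deviations from means of 3 arrays cannot settle whether the samples were paired. Alternatives were quantile normalization, centring, a filter on dim genes, the mean of probe sets, another variance model, array weights, the strain's own arrays, a replicate block and leaving out each array.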

Additional observations from a re-analysis of the deposited data

Results flagged for a closer look

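In 2 genes every CBE mouse of SV129 lay on one side of its PBS mice while every CBE mouse of another strain lay on the other side, where 1.82% of all genes did so. Junb, a JUN-family factor, differed by -0.50 between CBE and PBS mice in SV129 and by 0.39 in FVB. The difference between these strains was not tested as a pair, and the test of equal change over the 4 strains gave an adjusted p of 0.76 for Junb. Nr4a3, an activity-induced nuclear receptor, differed by -1.24 in SV129 and by 0.25 in C3H. This pair was not tested either, and equal change over the 4 strains had an adjusted p of 0.25 for Nr4a3.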

How the results depend on the processing

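In SV129, CBE against PBS, 1 gene passed the threshold, and 0 did after quantile normalization or with only the arrays of the strain. With the median of the 35 genes in place of their mean, SV129 differed by -0.85, FVB by 0.29, C57 by -0.31 and C3H by 0.04. The SV129 change minus that of the other strains passed for 1 gene (Nr4a3) with arrays centred on their median, against 0 otherwise. Leaving out 1 array at a time gave between 0 and 10 genes for SV129, between 0 and 2 for the SV129 change minus that of the other strains, between 0 and 1 for equal change and for the mean of 4 strains, between 0 and 2 for SV129 against the other PBS groups and between 3 and 15 for SV129 against the other CBE groups. The list mean then ran from -0.67 to -0.35 in SV129, 0.09 to 0.25 in FVB, -0.28 to -0.04 in C57 and 0.01 to 0.16 in C3H, and counts stayed at 0 in FVB, C57 and C3H under every alternative run. Leaving out 1 SV129 array also moved the share of all genes passing as lower, which ran from 0.0271% to 0.794% in SV129 CBE against PBS. For SV129 against the other CBE groups that share ran from 0.978% to 2.07%. The shares for the other contrasts in these fits are not given here. Under the other alternatives the SV129 count among CBE groups was 9 to 11. The fit with the replicate number as a block kept 1 gene in SV129 and 0 in each other strain, and the labels do not say whether the numbers pair the samples. No difference past the threshold changed sign under another scaling, array weights, the mean of probe sets, the block or without 1 array. Of the 17 genes given in full, 0 changed sign in SV129. Of all 35 genes, 7 did there, each within 0.15 of 0 with all arrays: Dusp5 was at 0.12 and Ptgs2 at 0.19 without PBS mouse 2, Egr3 at 0.05 and Jun at -0.0011 without PBS mouse 3, Maff at -0.04 without PBS mouse 1, and Nptx2 at 0.04 and Atf3 at -0.03 without CBE mouse 3. Maff was also at -0.02 after quantile normalization, and Maff (-0.03) and Atf3 (-0.0023) were below 0 after centring. Signs changed for 15 genes in FVB, 13 in C57 and 16 in C3H, and for 19 in SV129 against the other PBS groups. Groups of 3 arrays and dim probe sets limit what could be seen.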

Other observations

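Other cell types and regions were counted in SV129, CBE against PBS mice, beside the immediate-early genes. Over all genes in that contrast, 50.7% were lower, 0.0992% passed as lower and 0.0135% as higher. Interneuron markers were higher in 9 of 10 cases with a median of 0.12 and 0 past the threshold, and hippocampus markers were higher in 5 of 8 with a median of 0.10 and 0 past it. Microglia markers were higher in 5 of 7 with a median of 0.08 and astrocyte markers in 6 of 8 with a median of 0.05, with 0 past it in either list. Oligodendrocyte markers were lower in 5 of 7 with a median of -0.12, endothelial markers in 4 of 8 with a median of -0.01, and striatum markers in 3 of 5 with a median of -0.13, with 0 past the threshold in all 3 lists. Markers of pericytes and smooth muscle were higher in 4 of 6, and those of the choroid plexus in 4 of 5, again with 0 past it. Among CBE mice, microglia markers were lower in SV129 than in the other strains in 7 of 7 cases, with a median of -0.47. Of these 2 passed, where 45.9% of all genes were lower and 1.90% passed as lower. Among PBS mice 7 of 7 were lower, with a median of -0.17, and 0 passed. There 49.1% of all genes were lower and 1.16% passed as lower.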
